A study of Homo sapiens with 6 samples.

Results

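The 37 transcripts encoded by human mitochondrial DNA were examined in A549 cells. They were chosen as every row of the deposited count table whose symbol starts with MT-, which gave 37 of 62703 rows: 13 mRNAs, 2 rRNAs and 22 tRNAs. All 37 lie on chromosome MT. A549 is an established line of human lung adenocarcinoma cells. The study kept these cells in DMEM/F12 medium with 10% fetal bovine serum and antibiotics, at 5% CO2 and 37 °C, and compared 2 conditions labelled AlgLung and S-AlgLung, with 3 RNA-seq libraries each. The labels do not spell out either name or give a duration. By the series title, the study concerns sulfation of the extracellular matrix in tumors. Nothing in the labels says whether the 3 libraries of a condition came from separate cultures. The p-values therefore speak of library-to-library variation, and part or all of it may be technical.

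As background, mitochondrial DNA is a small circle whose strands are called heavy and light. Each strand is transcribed as a long precursor that is then cut into single RNAs. In the usual naming, the heavy-strand transcript carries both rRNAs, most of the tRNAs and all mRNAs but one, and the light-strand transcript carries MT-ND6 and the remaining tRNAs. Most mRNAs and rRNAs are flanked by tRNAs, which are excised by the cutting enzymes and so release their neighbours. The mRNAs encode core subunits of respiratory chain complexes I, III and IV and of ATP synthase (complex V). The rRNAs and tRNAs serve the mitochondrial ribosome, which makes only these proteins. In the table, 12 mRNAs, both rRNAs and 14 tRNAs were on the heavy-strand transcript, and 1 mRNA and 8 tRNAs on the light-strand transcript. A read that covers a tRNA row may come from the mature tRNA or from a longer precursor or neighbouring RNA. These sources cannot be told apart in the counts.

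The tRNA sequences below belong to the 1 mitochondrial row that passed the test between conditions (MT-TT, tRNA for threonine), to the heavy-strand tRNA with the next smallest p (MT-TD, for aspartic acid), and to the 4 neighbouring light-strand tRNAs that held most of the tRNA counts (MT-TA for alanine, MT-TN for asparagine, MT-TC for cysteine and MT-TY for tyrosine). Capitals mark the anticodon, the 3 bases that pair with the codon. Each is written 5′ to 3′ along its own transcript, as DNA letters, from the transcripts of GENCODE release 29 on GRCh38.
MT-TT: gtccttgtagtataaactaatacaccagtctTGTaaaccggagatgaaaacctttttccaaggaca
MT-TD: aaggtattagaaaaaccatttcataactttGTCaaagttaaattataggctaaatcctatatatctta
MT-TA: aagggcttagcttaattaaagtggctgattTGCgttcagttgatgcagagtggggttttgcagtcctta
MT-TN: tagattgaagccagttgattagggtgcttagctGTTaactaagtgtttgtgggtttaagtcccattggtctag
MT-TC: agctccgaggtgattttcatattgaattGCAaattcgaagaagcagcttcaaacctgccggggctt
MT-TY: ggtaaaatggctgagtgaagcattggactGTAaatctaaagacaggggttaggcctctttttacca

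These rows are short. MT-TT spans 66 bases (chromosome MT, 15888 to 15953, GRCh38) and starts on the base after MT-CYB ends at 15887. MT-TD spans 7518 to 7585 and MT-CO2 starts at 7586. On the other strand, MT-TA (5587 to 5655), MT-TN (5657 to 5729), MT-TC (5761 to 5826) and MT-TY (5826 to 5891) lie side by side just before MT-CO1, which starts at 5904, and MT-TC and MT-TY share base 5826. The ATP synthase genes MT-ATP8 (8366 to 8572) and MT-ATP6 (8527 to 9207) overlap by 46 bases in different reading frames. The shared stretch is shown because reads from it could be counted for either row; capitals mark the start codon of MT-ATP6 and the stop codon of MT-ATP8.
Shared by MT-ATP8 and MT-ATP6: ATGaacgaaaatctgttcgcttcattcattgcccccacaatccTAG

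MT-ND4L and MT-ND4 share 7 bases (10760 to 10766) in the same way. Of the 13 mRNA rows, 6 have a length that is not a multiple of 3: 5 end in T and 1 in TA after the last whole codon. In mitochondria such ends are known to become stop codons when the poly(A) tail is added. Base composition follows the strand. MT-ND6 has 35.6% G and 7.05% C, while the 12 heavy-strand mRNAs have 6.28% to 16.2% G and 29.5% to 36.0% C.

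Libraries held 22978408 to 26495444 counts, and no mitochondrial row had fewer than 82 counts in a library. All 37 rows passed the low-count filter, so no member was lost, among 18544 genes tested. Across all tested genes, 5.14% were called at an adjusted p under 0.05, 3.15% as higher and 1.99% as lower in S-AlgLung, and the median log2 fold change was 0.03. A list of markers of epithelium and of this carcinoma line, with 7 of 7 genes tested, had a high summed level in all 6 libraries. Scaled per 1000000 counts (CPM), AlgLung libraries held 21960 to 27120, and the range for S-AlgLung was 13840 to 23500. Most of this sum came from KRT8, KRT18, AKR1B10, AKR1C1 and ALDH3A1. EPCAM was low, at 34 to 152 counts a library, and CDH1 had 1349 to 2785. The summed level of the leukocyte list was 34.02 to 38.17 CPM in AlgLung and 52.52 to 66.35 in S-AlgLung, most of it CD14, with PTPRC at 0 in 5 of 6 libraries. The fibroblast list (6.492 to 10.26 CPM) and the endothelial list (2.307 to 4.118 CPM) were low in all libraries. Their part in the results was not tested. In bulk RNA, fewer cells and less RNA per cell cannot be told apart.

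The share of the library taken by mitochondrial transcripts did not differ between conditions beyond the spread of the libraries. The 37 rows together held 5.391%, 3.609% and 4.055% of all counts in AlgLung replicates 1 to 3, and 5.292%, 4.224% and 4.593% in S-AlgLung replicates 1 to 3. The highest library was an AlgLung one, and the groups overlapped. The means were 4.35% ± 0.927 and 4.70% ± 0.542 (SD, n = 3 each), a difference within the spread (exact 2-sided permutation test, p = 0.6). With 3 libraries against 3 this test cannot give a p below 0.1. The difference of 0.351 percentage points rested on single libraries: it was 0.871 without AlgLung replicate 1, with all S-AlgLung libraries then above (exact permutation p = 0.2), and -0.020 without AlgLung replicate 2. The mRNAs held 3.22% ± 0.830 of counts in AlgLung and 3.71% ± 0.426 in S-AlgLung (exact permutation p = 0.5), and the tRNA rows 0.309% ± 0.0896 and 0.355% ± 0.120 (exact permutation p = 0.7).

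The rRNAs were the class whose share differed in direction from the others. They held 0.8163%, 0.7553% and 0.8975% of counts in the 3 AlgLung libraries and 0.6798%, 0.6181% and 0.6065% in the 3 S-AlgLung libraries. Every S-AlgLung library was below every AlgLung library on this scale of raw library totals. The means were 0.823% ± 0.0713 and 0.635% ± 0.0394 (SD, n = 3 each), so the difference of -0.188 percentage points exceeded the SD of either group. The exact 2-sided permutation p was 0.1, the smallest possible here, and 0.4 after Benjamini-Hochberg adjustment over the 8 class shares and class ratios tested.

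**Figure D1:**
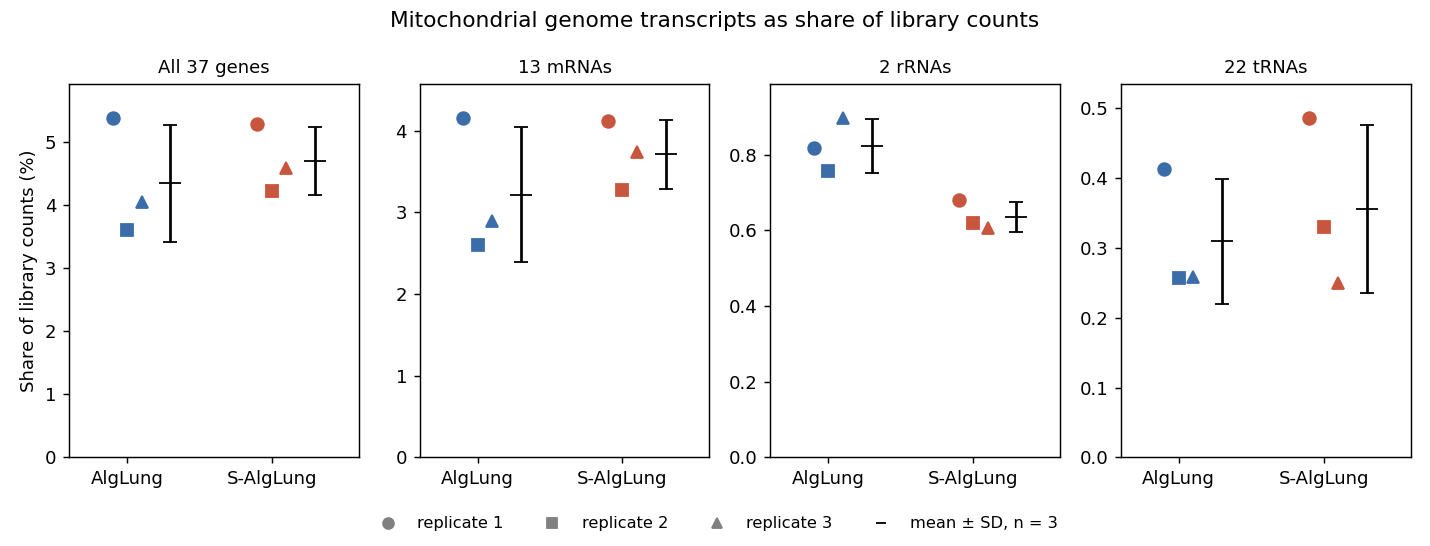
Share of each library's counts, in percent, held by all 37 mitochondrial rows and by the mRNA, rRNA and tRNA rows; each point is 1 library and the black marks show each group's mean ± SD (n = 3). The rRNA points of the 2 conditions do not overlap (0.755 to 0.898% against 0.607 to 0.680%), while the mRNA and tRNA points do.

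Because rRNAs and mRNAs of the heavy strand can come from shared precursors, their ratio was also compared. It does not depend on how libraries are scaled. Like the rRNA share, it can depend on how the libraries were made, which the labels do not give. The log2 ratio of rRNA to mRNA counts was -2.35, -1.782 and -1.692 in AlgLung and -2.602, -2.406 and -2.623 in S-AlgLung. All 3 S-AlgLung libraries lay below all 3 AlgLung libraries, although AlgLung replicate 1 was close to S-AlgLung replicate 2. The means were -1.94 ± 0.357 and -2.54 ± 0.120, a difference of -0.60 (exact 2-sided permutation p = 0.1, the smallest possible; adjusted p = 0.4). It ranged from -0.81 to -0.48 when any 1 library was left out. Among mitochondrial counts alone, rRNAs made up 15.14%, 20.93% and 22.13% in AlgLung and 12.85%, 14.63% and 13.21% in S-AlgLung, and mRNAs 77.2%, 71.97% and 71.49% against 77.97%, 77.56% and 81.35%.

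Neither rRNA passed the test on its own. MT-RNR1, the small subunit rRNA, had 748, 796 and 771 CPM in AlgLung and 654, 755 and 502 in S-AlgLung, on the scale of trimmed mean of M-values (TMM) normalization used for all CPM of single genes. S-AlgLung replicate 2 lay within the AlgLung range, and the log2 fold change of S-AlgLung over AlgLung was -0.28 (SE 0.26, edgeR adjusted p = 0.721). MT-RNR2, the large subunit rRNA, had 6662, 7008 and 7834 CPM in AlgLung and 6783, 6160 and 5046 in S-AlgLung, with AlgLung replicate 1 below S-AlgLung replicate 1 and a log2 fold change of -0.26 (SE 0.29, edgeR adjusted p = 0.780). S-AlgLung replicate 3 was the lowest of 6 for both. Their log2 ratio (MT-RNR2 to MT-RNR1) differed by 0.032 between conditions (exact 2-sided permutation p = 0.9). The overlap of both rows is on the TMM scale, while the rRNA shares, which did not overlap, are of raw library totals. TMM factors were 1.103, 0.969 and 1.044 in AlgLung and 0.915, 0.895 and 1.095 in S-AlgLung. The separation of the rRNA shares therefore depends on the scale used. Both rRNA rows had a negative log2 fold change under each of the scalings, tests and left-out libraries tried.

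Of the 37 rows, 1 was called higher in S-AlgLung and 0 were called lower with edgeR's quasi-likelihood test, 2.7% of the members against 3.15% of all tested genes called higher. At an unadjusted p under 0.05 there were 3 (MT-TT, MT-TD and MT-ND2), which is 8.11% of the members against 14.9% of tested genes. With all libraries in the fit, the share of members called was thus no greater than in the table as a whole. In 5 rows, or 13.5%, all S-AlgLung libraries were above all AlgLung libraries (MT-TF, MT-TQ, MT-CO1, MT-TD and MT-TT), against 10.4% of tested genes, and in 0 rows were all below, against 8.05%.

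Most members nevertheless had the same sign. The log2 fold change was above 0 in 32 of 37 rows (86.5%), against 53.4% of all tested genes: 11 of 13 mRNAs, 21 of 22 tRNAs and 0 of 2 rRNAs. The median was 0.32 over all 37 rows, 0.31 for the mRNAs, 0.33 for the tRNA rows and -0.27 for the rRNAs. The mRNA median rested on single libraries: it was 0.57 without AlgLung replicate 1 and 0.12 without S-AlgLung replicate 1. With libraries scaled by total counts only, the median of all tested genes moved by -0.10 to -0.07, and the mitochondrial median was 0.21 with 30 of 37 rows above 0; MT-TM and MT-TE changed sign. The rows share precursors and libraries, so their signs are not independent observations, and the share of the library they held did not differ beyond its spread.

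**Figure D2:**
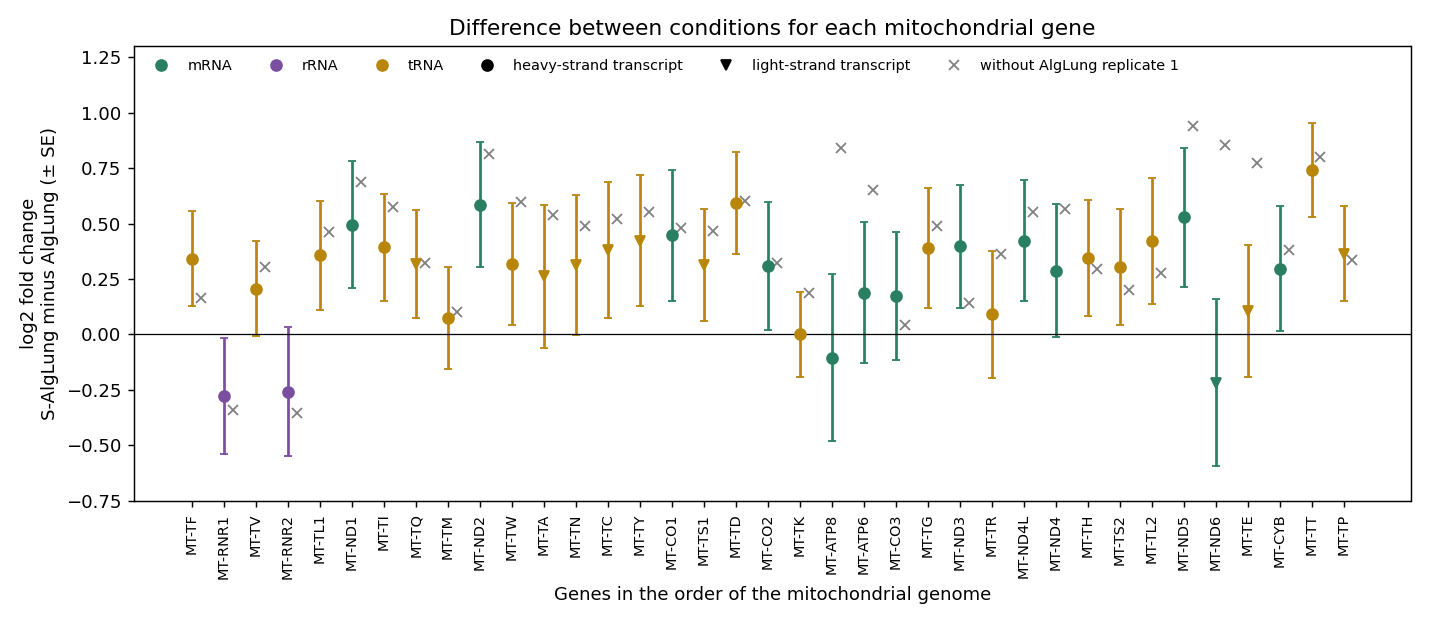
Log2 fold change of S-AlgLung over AlgLung for each of the 37 mitochondrial rows in genome order, with bars of 1 standard error; triangles mark the light-strand transcript and crosses the values without AlgLung replicate 1. MT-TT (0.74) is the row called at an adjusted p under 0.05, and both rRNAs lie below 0.

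Complex I takes electrons from NADH, and 7 of its subunits are mitochondrially encoded. MT-ND2 had 1306, 778 and 817 CPM in AlgLung and 1747, 1350 and 1252 in S-AlgLung. AlgLung replicate 1 lay above S-AlgLung replicate 3, and the log2 fold change of 0.58 (SE 0.28) did not pass (edgeR adjusted p = 0.327). The other heavy-strand complex I mRNAs had log2 fold changes of 0.53 (MT-ND5), 0.50 (MT-ND1), 0.42 (MT-ND4L), 0.40 (MT-ND3) and 0.29 (MT-ND4), with adjusted p-values of 0.453 to 0.758. Leaving out AlgLung replicate 1 moved them unevenly, to 0.94 for MT-ND5, 0.57 for MT-ND4 and 0.14 for MT-ND3. Without S-AlgLung replicate 1, MT-ND4L was at 0.21 and MT-ND4 at 0.11. Over the alternatives with 1 library left out, all 6 heavy-strand complex I mRNAs stayed above 0. MT-ND5 varied most among the other 5, with 2312, 990 and 1176 CPM in AlgLung and 2555, 1594 and 2309 in S-AlgLung.

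MT-CO1 encodes the catalytic subunit of complex IV, the oxidase that passes electrons to oxygen. It had 9692, 7974 and 8556 CPM in AlgLung and 12884, 11070 and 11780 in S-AlgLung. Every S-AlgLung library was above every AlgLung library, and the means were 8741 ± 874 and 11911 ± 914 CPM (SD, n = 3 each). Its log2 fold change of 0.45 (SE 0.30) nevertheless did not pass edgeR's test (adjusted p = 0.548). The other complex IV subunits, MT-CO2 (log2 fold change 0.31) and MT-CO3 (0.17), overlapped between groups. MT-CYB, the cytochrome b of complex III, had 2475, 1930 and 1897 CPM in AlgLung and 3224, 2321 and 2191 in S-AlgLung, and its log2 fold change of 0.30 (SE 0.28) did not pass either (edgeR adjusted p = 0.725).

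The ATP synthase mRNAs turned on 1 library. MT-ATP8 had 2579, 622 and 683 CPM in AlgLung and 1526, 1177 and 912 in S-AlgLung. MT-ATP6 had 4445, 1886 and 2025 CPM in AlgLung and 3842, 2906 and 2777 in S-AlgLung. For both, AlgLung replicate 1 was the highest of all 6 libraries and the other AlgLung replicates were the lowest. The log2 fold changes were -0.10 (SE 0.38, edgeR adjusted p = 0.951) and 0.19 (SE 0.32, edgeR adjusted p = 0.878), and without AlgLung replicate 1 they were 0.84 and 0.65. The next gene on the same transcript, MT-CO3, went the other way in that library, with 4337 CPM against 5283 and 5191 in the other AlgLung libraries. The log2 ratio of MT-CO3 to MT-ATP6 counts was therefore -0.036 in AlgLung replicate 1, against 1.486 and 1.358 in the other AlgLung libraries and 0.725 to 0.966 in S-AlgLung.

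MT-ND6, the complex I subunit on the light-strand transcript, showed the same dependence. It had 872, 191 and 195 CPM in AlgLung and 388, 305 and 390 in S-AlgLung. Apart from AlgLung replicate 1, which was the highest of 6, every S-AlgLung library was above the AlgLung libraries. The log2 fold change was -0.22 (SE 0.38, edgeR adjusted p = 0.883) with all libraries and 0.85 without AlgLung replicate 1 (edgeR adjusted p = 0.162). The log2 ratio of MT-ND6 to heavy-strand mRNA counts was -5.403, -7.124 and -7.144 in AlgLung and -6.85, -6.898 and -6.436 in S-AlgLung. Its means differed by -0.17 with all libraries (exact 2-sided permutation p = 1) and by 0.41 without AlgLung replicate 1 (exact permutation p = 0.2). Whether the authors' counting used strand is not known here. If it did not, light-strand RNA opposite other genes was counted for those genes, and heavy-strand precursor for MT-ND6, so these values carry that uncertainty.

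**Figure D3:**
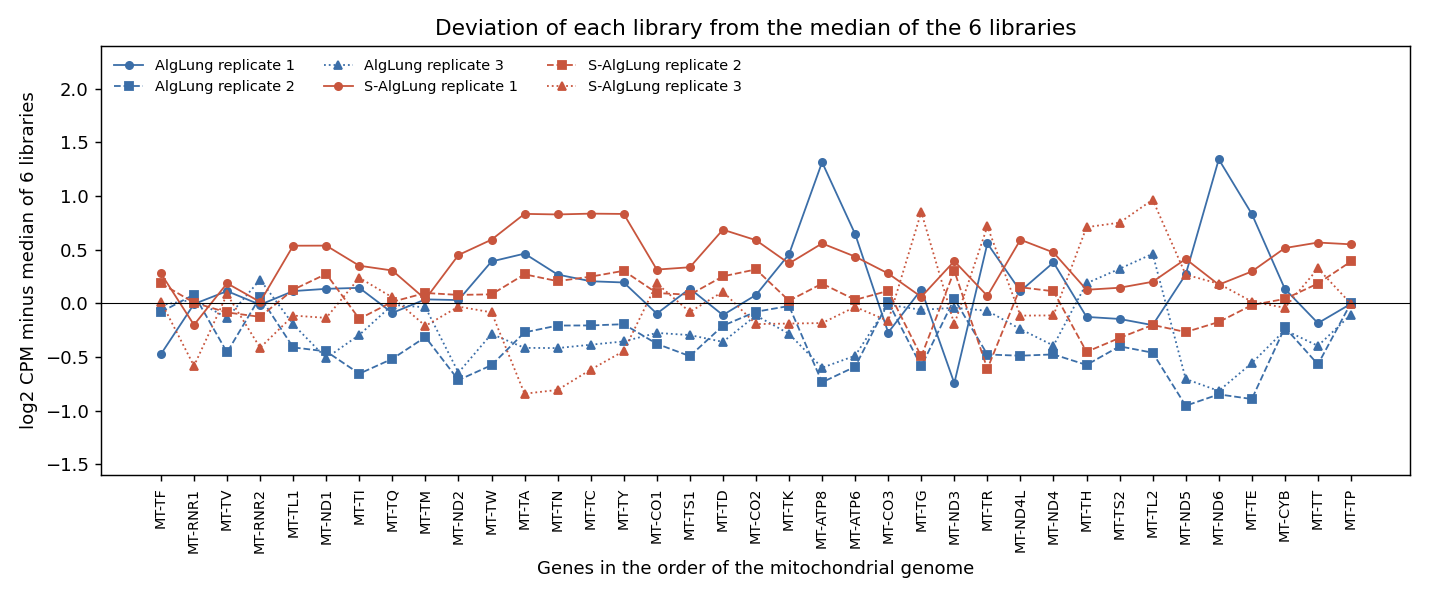
Log2 of the TMM-scaled CPM in each library minus the median of the 6 libraries, for the 37 mitochondrial rows in genome order. AlgLung replicate 1 stands above its fellow replicates at MT-ATP8, MT-ATP6, MT-ND6 and MT-TE and below them at MT-TF, MT-CO3 and MT-ND3.

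AlgLung replicate 1 stood apart from replicates 2 and 3 over the mitochondrial rows. Its level was 4.52 times the mean of the other AlgLung libraries for MT-ND6, 3.95 times for MT-ATP8, 2.92 times for MT-TE (the tRNA for glutamic acid, next to MT-ND6), 2.27 times for MT-ATP6 and 2.13 times for MT-ND5. It was 0.597 times for MT-ND3, 0.745 times for MT-TF and 0.828 times for MT-CO3, and the median over the 37 rows was 1.35. It was the highest of 6 libraries in 5 rows and the lowest in 3. What sets this library apart was not tested, and GEO's labels describe it like the others. Without it, 35 of 37 rows had a log2 fold change above 0 (47.9% of all tested genes did), with a median of 0.48. At that setting edgeR called 0 rows, where 1.52% of tested genes were called higher and 1.35% lower. An unadjusted p under 0.05 was found for 9 of the 37 rows, a larger share than the 11.1% of tested genes. The rows are not independent observations, as stated above.

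S-AlgLung replicate 3 differed from its fellow replicates too, mainly among the tRNAs. It was the highest of 6 libraries in 5 rows, all heavy-strand tRNAs (MT-TG, MT-TR, MT-TH, MT-TS2 and MT-TL2), at 1.77 to 2.06 times the mean of S-AlgLung replicates 1 and 2. It was the lowest of 6 in 7 rows: both rRNAs, MT-CO2, and the light-strand tRNAs MT-TA, MT-TN, MT-TC and MT-TY, at 0.373 to 0.487 times for the latter 4. The summed level of the nuclear long RNAs MALAT1 and NEAT1 was 264 CPM in this library, 69.2 and 39.8 in S-AlgLung replicates 1 and 2, and 58.9 to 73.6 in AlgLung; the part of nuclear RNA in these values was not tested.

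Both libraries were then left out together, a choice made after seeing these same genes. With 2 libraries against 2, edgeR called 14 of the 37 rows higher and 0 lower, where 3.89% of the genes tested were called higher and 2.61% lower. They were the mRNAs MT-ATP6, MT-ATP8, MT-ND1, MT-ND2, MT-ND4L, MT-ND5 and MT-ND6 and the tRNAs MT-TA, MT-TC, MT-TD, MT-TE, MT-TN, MT-TT and MT-TY. Because AlgLung replicate 1 and S-AlgLung replicate 3 were picked for values of these rows, that count is a description and supports no difference between conditions.

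MT-TT was the 1 row called with all libraries. It had 23.5, 18.0 and 20.3 CPM in AlgLung and 39.6, 30.4 and 33.5 in S-AlgLung. All S-AlgLung libraries were above all AlgLung libraries, with means of 20.6 ± 2.76 and 34.5 ± 4.69 CPM (SD, n = 3 each). The log2 fold change was 0.74 (SE 0.21, edgeR adjusted p = 0.0360). The adjusted p was 0.210 with scaling by total counts only, so the call was lost. It was also lost on leaving out AlgLung replicate 1 (0.0890), AlgLung replicate 2 (0.171), AlgLung replicate 3 (0.313) or S-AlgLung replicate 1 (0.178). The log2 fold change itself stayed between 0.63 and 0.80 in these 5 settings. It was kept without S-AlgLung replicate 2 (0.0299) or 3 (0.00902). The log2 ratio of MT-TT to heavy-strand mRNA counts, which is free of library scaling, was -10.61, -10.53 and -10.41 in AlgLung. In S-AlgLung it was -10.14, -10.22 and -9.978, without overlap. This ratio was not among the planned class ratios and reuses the counts behind the call, so it is a description and no separate support.

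The upstream neighbour of MT-TT and its neighbour on the other strand changed less in the fitted values, although the differences between rows were not tested. MT-CYB had a log2 fold change of 0.30. MT-TP, the tRNA for proline, which starts at 15956 and is read from the other strand, had 34.3, 34.5 and 32.0 CPM in AlgLung and 50.4, 45.1 and 34.3 in S-AlgLung, a log2 fold change of 0.36 (edgeR adjusted p = 0.468). S-AlgLung replicate 3 lay among the AlgLung libraries for MT-TP but not for MT-TT.

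MT-TD had 9.01, 8.41 and 7.57 CPM in AlgLung and 15.6, 11.6 and 10.5 in S-AlgLung. Its groups did not overlap, and the log2 fold change of 0.59 (SE 0.23) missed the threshold (edgeR adjusted p = 0.180); without S-AlgLung replicate 3 it passed (adjusted p = 0.0340). MT-TF, the tRNA for phenylalanine that lies just before MT-RNR1, had 26.8, 35.1 and 36.7 CPM in AlgLung and 45.1, 42.3 and 37.6 in S-AlgLung, a log2 fold change of 0.34 (edgeR adjusted p = 0.508). S-AlgLung replicate 3 was above AlgLung replicate 3 by less than 1 CPM here.

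The tRNA counts were concentrated in 4 rows. MT-TA, MT-TN, MT-TC and MT-TY, whose sequences are given above, held 69.84% to 83.69% of all counts in tRNA rows, depending on the library. MT-TC had 838, 630 and 556 CPM in AlgLung and 1297, 863 and 473 in S-AlgLung, so S-AlgLung supplied both the highest and the lowest library. Within a library the 4 rows kept close proportions: MT-TC counts were 0.905 to 1.03 times those of MT-TY, MT-TN 0.776 to 0.923 times those of MT-TC, and MT-TA 0.623 to 0.745 times those of MT-TN. Past the end of MT-TA the level dropped: MT-TW, the tRNA for tryptophan 7 bases away on the opposite strand, had 0.0106 to 0.0223 times the counts of MT-TA. A like step lay between MT-TS1, a serine tRNA on the light-strand transcript next to MT-CO1, and MT-TD, with 20.6 to 31.2 times as many counts in MT-TS1.

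By strand, the tRNAs did not separate the conditions. Light-strand tRNA counts over heavy-strand ones gave log2 ratios of 3.397, 3.312 and 2.916 in AlgLung and 3.544, 3.364 and 2.458 in S-AlgLung, a difference of means of -0.09 (exact 2-sided permutation p = 0.9). S-AlgLung replicate 3 was the lowest of 6, and without it the difference was 0.25. For tRNA over mRNA counts the log2 ratio was -3.334, -3.342 and -3.486 in AlgLung and -3.085, -3.312 and -3.902 in S-AlgLung, a difference of -0.05 (exact permutation p = 1), which became 0.19 without S-AlgLung replicate 3.

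**Figure D4:**
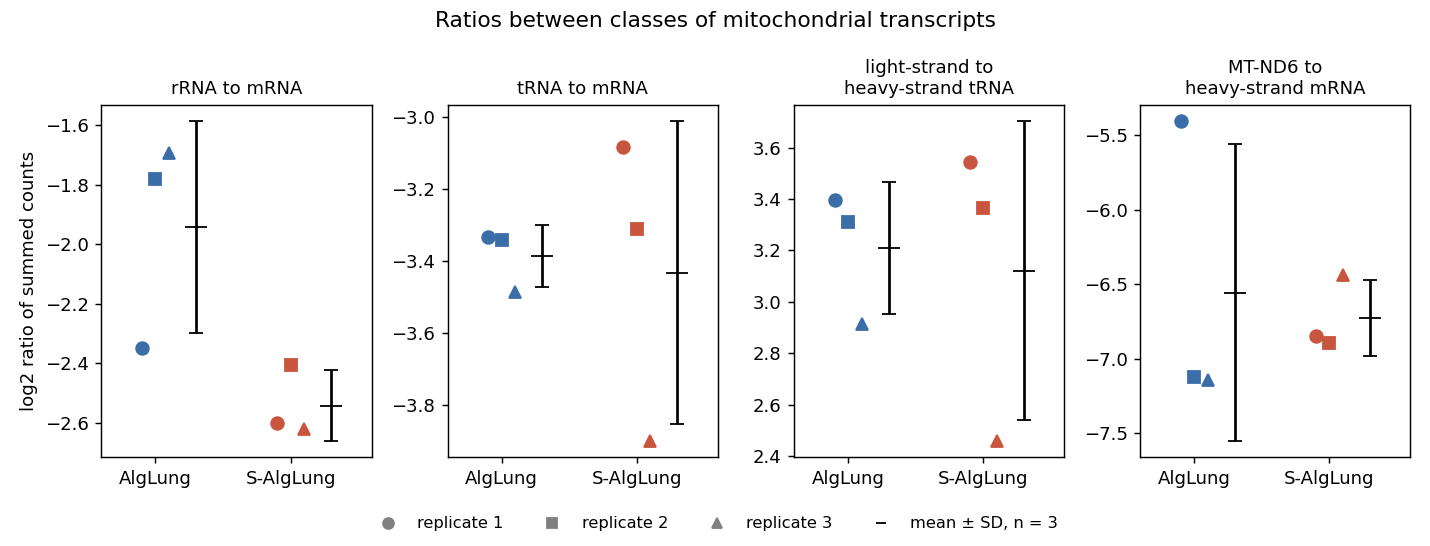
Log2 ratios of mitochondrial count classes in each library; each point is 1 library and the black marks show each group's mean ± SD (n = 3). The rRNA to mRNA ratio does not overlap between conditions (-2.35 to -1.69 against -2.62 to -2.41), and AlgLung replicate 1 stands apart in the MT-ND6 ratio at -5.40.

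Levels of different mitochondrial genes were compared as CPM per kilobase of row length. Among mRNAs in AlgLung, MT-CO3 (6297), MT-ATP8 (6255) and MT-CO1 (5668) were highest, though MT-ATP8 was at 12460 in replicate 1 and 3005 and 3301 in replicates 2 and 3. In S-AlgLung the order was MT-CO1 (7724), MT-CO3 (7101) and MT-ATP8 (5821). The complex I mRNAs were lower, from 799 for MT-ND6 to 2157 for MT-ND4L in AlgLung and from 688 to 2892 for the same genes in S-AlgLung. MT-RNR1 was at 809 in AlgLung and MT-RNR2 at 4598, both in the range of the mRNAs. The share of rRNA in a total-RNA extract depends on how the library was made, which the labels do not give. Among tRNA rows the level ran from 74.75 (MT-TK) to 10220 (MT-TC) in AlgLung. For such short rows, how reads that reach into a neighbouring row were counted is not known here, so their level beside that of long genes is uncertain.

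Nuclear pseudogenes that resemble mitochondrial genes can take or share reads. Of 404 such rows in the table, 11 had enough counts to be tested. MTATP6P1, whose annotated sequence is 98.53% identical to MT-ATP6 with a shared run of up to 141 bases, had counts equal to 4.44% of MT-ATP6 in AlgLung replicate 1 and 8.096% to 10.68% in the other 5 libraries. Each of the other 10 had under 1% of its parent's counts. In all 11 the share of the parent was lowest in AlgLung replicate 1. Of these 11, edgeR called 2 higher in S-AlgLung, where 3.15% of all tested genes were called higher. They were MTND2P28 (98.18% identical to MT-ND2, log2 fold change 0.88, edgeR adjusted p = 0.0427) and MTND5P11 (92.99% identical to MT-ND5, 1.25, edgeR adjusted p = 0.0358). Their counts were low, at 73 to 172 a library for MTND2P28 and 16 to 70 for MTND5P11. The treatment of reads that map to several places is not known here, so the split between parent and copy is uncertain.

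Nuclear genes supply the other respiratory subunits and the machinery that copies, transcribes and translates mitochondrial DNA. Of 255 such genes in 12 lists, 254 were tested. With edgeR 0 were called higher and 2 lower, against 3.15% and 1.99% of all tested genes. An unadjusted edgeR p under 0.05 was found for 11 of the 254, against 14.9% of all tested genes. The median log2 fold change over the 254 was -0.03. By list it was -0.04 for nuclear subunits of complex I (37 genes), 0.09 for complex IV (11), -0.05 for complex V (17) and 0.0056 for the mitochondrial ribosome (80). The medians of the mitochondrially encoded mRNAs of complexes I, IV and V were 0.42, 0.31 and 0.04. Without AlgLung replicate 1 they were 0.68, 0.32 and 0.74. Medians of the nuclear lists were not taken at that setting.

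The 2 called genes both came from the list for mitochondrial DNA maintenance. DNA2, a nuclease-helicase of nuclear and mitochondrial DNA replication and repair, fell from 1.91 ± 0.366 CPM in AlgLung to 0.582 ± 0.0669 in S-AlgLung. Its log2 fold change was -1.71 (SE 0.38, edgeR adjusted p = 0.00491). DNA2 was called under each of the alternative scalings, tests, filters and left-out libraries (adjusted p up to 0.0345). Its level was low, at 0.507 to 0.635 CPM in the S-AlgLung libraries, so its fold change rests on few counts. RRM2B, the ribonucleotide reductase subunit that supplies deoxynucleotides outside S phase and a known p53 target, fell from 30.6 ± 7.55 CPM in AlgLung to 17.3 ± 3.90 in S-AlgLung, a log2 fold change of -0.83 (SE 0.23, edgeR adjusted p = 0.0312). It no longer passed when AlgLung replicate 1 (0.169), AlgLung replicate 3 (0.0946) or S-AlgLung replicate 2 (0.141) was left out, each value being an edgeR adjusted p.

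The genes that transcribe the mitochondrial genome did not pass the test. POLRMT, its RNA polymerase, had 79.9 ± 8.37 CPM in AlgLung and 71.1 ± 26.1 in S-AlgLung, a log2 fold change of -0.17 (edgeR adjusted p = 0.855), and TFAM, which packages and helps to transcribe mitochondrial DNA, had 17.7 ± 3.84 and 14.3 ± 1.52 CPM (-0.31, adjusted p = 0.599). TEFM, the elongation factor, had 4.46 ± 0.732 and 3.69 ± 0.644 CPM (-0.27, edgeR adjusted p = 0.740). TFB2M, the initiation factor, was at 13.3 ± 0.871 and 9.82 ± 0.630 CPM, without overlap between groups (log2 fold change -0.44, edgeR adjusted p = 0.345). LRPPRC, which with SLIRP stabilises mitochondrial mRNAs, had 121 ± 24.9 and 92.4 ± 19.5 CPM (log2 fold change -0.39, edgeR adjusted p = 0.518), and SLIRP a log2 fold change of 0.20 (adjusted p = 0.782). POLG, the DNA polymerase of mitochondria, had all S-AlgLung libraries above AlgLung, at 59.8 ± 3.43 and 74.7 ± 3.83 CPM (log2 fold change 0.32, edgeR adjusted p = 0.559). TWNK, the helicase that works with it, had 37.2 ± 3.04 and 36.5 ± 5.53 CPM (-0.027, edgeR adjusted p = 0.981).

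**Figure D5:**
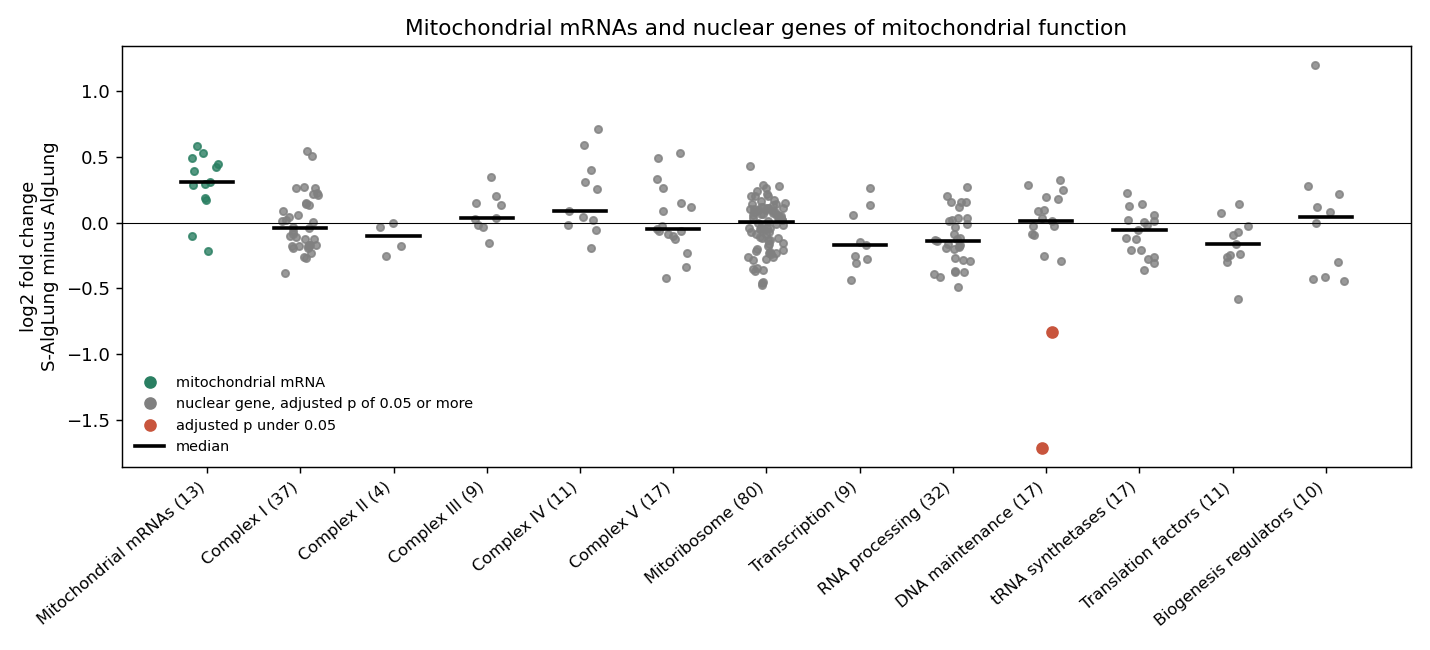
Log2 fold change of S-AlgLung over AlgLung for the 13 mitochondrial mRNAs and for 12 lists of nuclear genes of mitochondrial function; each point is 1 gene and each bar a list's median. The medians of the nuclear lists lie between -0.17 and 0.09, and DNA2 (-1.71) is the lowest point.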

How the data were processed

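STAR 2.7.3a, the GRCh38 build and featureCounts are named in the submitters' processing notes. The featureCounts version, annotation and handling of strand, overlapping genes and multiply matching reads were not given in the sources used here. Per the labels' protocols, RNA was extracted with TRIzol and a column kit, and a service provider made and sequenced the libraries. The deposited table holds whole-number counts, not normalized. AlgLung replicate 1 had 2 columns with 0 differing genes, counted as 1 sample. The start, end and strand of 37 of 37 MT- rows equalled those of GENCODE release 29.

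Genes were filtered with filterByExpr (minimum count 10), scaled with TMM factors and tested over all 6 libraries with edgeR 4.0.16 (quasi-likelihood F test, R 4.3.3), with Benjamini-Hochberg adjustment over 18544 genes and a threshold of 0.05. The biological coefficient of variation was 0.215. The test was checked on simulated data. Shares and class ratios were taken from raw counts and compared with exact 2-sided permutation tests, enumerated in Python 3.11.15. Counting precision rests on 22978408 to 26495444 counts a library. The text describes the mitochondrial rows by class, and nuclear genes of mitochondrial function from those named by rule: up to 3 with the smallest p in each list, and 9 fixed by name. The members and lists were chosen with earlier results of these data known. Alternatives were DESeq2 1.42.0, limma-voom (limma 3.58.1), other scalings, filters and thresholds, a replicate block and leaving out libraries. Leaving out 2 libraries together was chosen after seeing the data.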

Additional observations from a re-analysis of the deposited data

How the results depend on the processing

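The rRNA to mRNA ratio kept its direction under each alternative run, including without both AlgLung replicate 1 and S-AlgLung replicate 3 (-0.77), as did the mRNA median. The number of mitochondrial rows called higher went from 1 to 0 at an adjusted p under 0.01 and to 0 with total counts only, was 0 to 2 with 1 library left out, and was 14 without both of those libraries. Without both, the mRNA median log2 fold change was 0.71, and with 1 left out 0.12 to 0.57. With 1 library left out, the difference in the MT-ND6 to heavy-strand mRNA ratio ran from -0.46 to 0.41, in the tRNA to mRNA ratio from -0.22 to 0.19, in the light-strand to heavy-strand tRNA ratio from -0.30 to 0.25, and in the mitochondrial share of counts from -0.020 to 0.87 percentage points. Without both libraries these 3 ratios differed by 0.26, 0.22 and 0.34, and the share by 0.93 percentage points. The MT-ND6 log2 fold change was 0.18 with limma-voom, -0.61 to 0.85 with 1 library left out and 0.81 without both. The MT-ATP8 log2 fold change was 0.21 with limma-voom, -0.46 to 0.84 with 1 left out (0.84 without AlgLung replicate 1, 0.026 without S-AlgLung replicate 3) and 1.02 without both. Of the nuclear genes, 0 to 2 were called higher and 1 to 4 lower with 1 library left out, 1 lower at an adjusted p under 0.01, and 4 lower without both. The share over all tested genes moved too. With 1 library left out, 1.52% to 4.75% were called higher and 1.28% to 3.53% lower. Among those settings, these shares and the mitochondrial and nuclear counts were largest without S-AlgLung replicate 3. Without both libraries, 3.89% were called higher and 2.61% lower. Where these values turned, the cause was not tested beyond which library was left out.

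Labels number the replicates, but none says that a number marks a shared culture or day, so the numbers were not taken as pairs. Deviations of same-numbered libraries correlated at 0.0721, 0.285 and 0.0413 over genes, and those of differently numbered ones at -0.338 to 0.208. With so few libraries these values do not decide whether the numbers are pairs. With a replicate block, 1 mitochondrial row was called higher, as without it, the mRNA median was 0.32, MT-ND6 had a log2 fold change of 0.19 and MT-ATP8 0.20, and 800 and 500 of all tested genes were called higher and lower, against 584 and 369.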

Other observations

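Among nuclear genes of mitochondrial function that did not pass the test, the 4 with log2 fold changes furthest from 0 were ESRRG, COX7C, COX7B and MTIF2. ESRRG, a nuclear receptor that drives genes of oxidative metabolism, had a log2 fold change of 1.20 (edgeR adjusted p = 0.124) at about 1 CPM. COX7C, a small structural subunit of complex IV, had a mean of 67.1 ± 9.17 CPM in AlgLung, with 110.0 ± 62.3 for S-AlgLung (SD, n = 3 each; log2 fold change 0.71, edgeR adjusted p = 0.196). COX7B, another small subunit of complex IV, had a log2 fold change of 0.59 (edgeR adjusted p = 0.246). For both, S-AlgLung replicate 3 was the highest of 6 libraries, at 180.5 CPM for COX7C and 43.1 for COX7B. MTIF2, a mitochondrial translation initiation factor, had a log2 fold change of -0.58 (edgeR adjusted p = 0.180). The share of genes with a log2 fold change above 0 varied among the lists, and this was not tested. Over all tested genes it was 53.4%, with a median of 0.03. It was 10 of 32 genes for mitochondrial RNA processing (median -0.14) and 2 of 11 translation factors (-0.16). For mitochondrial transcription it was 3 of 9 (-0.17), and for nuclear subunits of complex II 0 of 4 (-0.10). For complex IV it was 8 of 11 (0.089) and for complex III 6 of 9 (0.033), both short lists with medians near that of all genes. EdgeR called 0 genes in each of these lists, where 5.14% of all tested genes were called. At an unadjusted p under 0.05 they had 0, 1, 0, 0, 2 and 0 genes, where 14.9% of all tested genes passed. PPARGC1A, the co-activator best known for mitochondrial biogenesis, had 29 counts over the 6 libraries and was not tested.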
